A study of Mus musculus with 6 samples.

Results

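The ATF4 and unfolded protein response genes examined here are 38 mouse genes. They were listed by name from what is known of these pathways, when earlier results of these data were known. Of the 38 genes, 37 were among the 13730 genes of the deposited table, and 34 passed the filter on low counts and were tested. *Gdf15* was not analysed here, and *Ppp1r15a*, *Trib3* and *Creld2* were below the filter. RNA was measured in 6 tumors of C0321, a mouse triple-negative breast cancer (TNBC) line derived from a tumor of FVB mice that lack Lunatic Fringe (*Lfng*). In each mouse, cells mixed with Matrigel had been placed in the mammary fat pad of a female FVB animal aged 6 to 10 weeks. In the SS group (n = 3), sulindac sulfide, the COX-inhibiting metabolite of sulindac, was given by mouth at 60 mg/kg each day for 14 days once a mass could be felt, and the control group (n = 3) received control treatment. The sample labels name the drug as Sulindac Sulfate and the series description names saline as the control, whereas the study names sulindac sulfide and vehicle. All 6 tumors came from the same cell line, and their RNA was a mixture of cancer cells and cells of the host.

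The unfolded protein response adjusts a cell to misfolded protein in the endoplasmic reticulum (ER). Its sensors are PERK (*Eif2ak3*), IRE1 (*Ern1*) and ATF6. PERK, and the amino acid sensor GCN2 (*Eif2ak4*), phosphorylate the initiation factor eIF2, which slows protein synthesis but raises translation of the *Atf4* mRNA. ATF4 then switches on genes of amino acid synthesis, amino acid transport and tRNA charging, while ATF6 and spliced XBP1 switch on chaperones and degradation factors of the ER. Cancer cells use both arms when nutrients, oxygen or folding capacity run short.

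Short DNA elements tie the members to these factors, and those of the members on which the results turn are shown. The C/EBP-ATF element, searched as TGATGNAA on both strands, is bound by ATF4 with a C/EBP partner. The ER stress element, searched as CCAAT and CCACG set 9 bases apart, and its second form, ATTGG and CCACG set 1 base apart, are bound by ATF6 or XBP1 with NF-Y. RefSeq promoters on GRCm38.p6, from 250 bases before to 50 after the start, were matched for 34 of the 38 members, and *Atf6*, *Wars*, *Hyou1* and *Manf* were not matched. The sequences run along the strand of the gene, and capitals mark the element, which reads in reverse complement where the match lay on the other strand.
Atf3, chr1:191183410-191183469, minus strand: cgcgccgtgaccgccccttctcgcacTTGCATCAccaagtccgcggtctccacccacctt
Nupr1, chr7:126625547-126625606, minus strand: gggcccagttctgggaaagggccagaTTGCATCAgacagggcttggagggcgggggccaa
Chac1, chr2:119351023-119351082, plus strand: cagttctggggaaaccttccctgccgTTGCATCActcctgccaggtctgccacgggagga
Asns, chr6:7693210-7693269, minus strand: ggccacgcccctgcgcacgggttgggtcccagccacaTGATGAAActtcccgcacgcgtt
Gars, chr6:55037941-55038000, plus strand: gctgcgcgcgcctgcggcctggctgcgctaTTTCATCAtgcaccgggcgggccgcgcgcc
Canx, chr11:50325779-50325838, minus strand: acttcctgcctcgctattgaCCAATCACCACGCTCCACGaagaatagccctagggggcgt
Calr, chr8:84847054-84847113, minus strand: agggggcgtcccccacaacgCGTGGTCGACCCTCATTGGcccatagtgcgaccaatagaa
Herpud1, chr8:94386317-94386407, plus strand: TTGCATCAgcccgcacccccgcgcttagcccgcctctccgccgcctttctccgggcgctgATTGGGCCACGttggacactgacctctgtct
In *Herpud1* the first run of capitals is a C/EBP-ATF element and the second the second form of the ER stress element.

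A C/EBP-ATF element was found in the promoters of 9 members (*Atf3*, *Nupr1*, *Trib3*, *Chac1*, *Vldlr*, *Asns*, *Aars*, *Gars* and *Herpud1*), and 3.97% of 32851 promoter windows hold one. The ER stress element was found in *Calr*, *Canx*, *Pdia6* and *Creld2*, against 0.119% of all windows, and its second form in *Herpud1*, against 0.0365%. The UPR element, searched as TGACGTGG, was found in 0 members and in 0.676% of all windows. These matches are letters in a window and were not tested as binding sites.

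The tumors gave between 8468914 counts (SS 2) and 24441522 counts (control 3). Levels are given as CPM, the counts of a gene scaled to a common library size with TMM factors, and fold changes are SS over control on the log2 scale from edgeR, with their standard error (SE). The mesenchymal list of 8 genes, chosen for claudin-low tumor cells, summed to between 12138 and 15516 CPM. The 12 epithelial and receptor genes summed to between 526 and 748 CPM. In whole tumors these sums do not separate cancer cells from cells of the host. Each of the 37 members had at least 1 count in every tumor.

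The members differed widely in level. Per kilobase of transcript, the highest control means were those of *Pdia3*, at 461 CPM per kb, *Cebpb*, at 320, *Canx*, at 189, *Calr*, at 148, and *Atf4*, at 145 CPM per kb. *Pdia3*, *Canx* and *Calr* encode the partners that fold glycoproteins in the ER. The lowest were *Ppp1r15a*, at 0.215, *Cebpg*, at 0.225, *Trib3*, at 0.387, and *Creld2*, at 0.468 CPM per kb in the control tumors. The sensor gene *Ern1* was at 6.96 CPM per kb and *Eif2ak3* at 0.539 CPM per kb.

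No member passed the adjusted threshold. Over all 10902 genes tested, 0 passed an adjusted p of 0.05 (0.0%) by edgeR, and the adjusted p of the 34 members tested lay between 0.771 and 1. At an unadjusted p under 0.05, edgeR named 693 genes (6.36%), and DESeq2, which gave 35 genes (0.58% of 6039) past adjustment, named none of the members among these, with 0.267 as the smallest adjusted p of a member and no adjusted p for 7 members. At the unadjusted threshold 4 of the 34 members tested (11.8%) were found, of which *Atf4*, *Atf3* and *Chac1* were lower in SS tumors (3.16% of all genes) and *Sdf2l1* was higher (3.19% of all genes). DESeq2 also found 4 members at an unadjusted p under 0.05 (6.31% of all genes), with *Asns* in place of *Chac1*. These calls changed with the tumors included. With 1 tumor left out, *Atf4* and *Atf3* were at an unadjusted p under 0.05 only without control 2, *Chac1* only without control 1 or SS 2, and *Sdf2l1* only without control 3, SS 2 or SS 3. Such fits hold fewer tumors, so a lost call alone does not show a smaller difference. Log2 fold changes kept their sign, at -0.44 to -0.17 for *Atf4*, -1.25 to -0.62 for *Atf3*, -1.76 to -0.91 for *Chac1* and 0.25 to 0.68 for *Sdf2l1*. For *Atf4*, *Atf3* and *Chac1* the value nearest 0 was that without control 3.

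Most of the members nevertheless had the lower mean in SS tumors. The log2 fold change was below 0 for 27 of the 34 members tested (79.4%), against 50.2% of all genes, and its median was -0.13 for these members and -0.0013 for all genes. The 3 control and 3 SS tumors did not overlap for 5 members, against 12.9% of all genes. All 3 SS tumors were lower for *Atf4*, *Atf6* and *Chac1* (6.4% of all genes) and higher for *Sdf2l1* and *Eif2ak4* (6.51% of all genes). With 3 tumors against 3, an exact permutation test cannot give a p below 0.1. In whole tumors, fewer cells of a type and less RNA per cell cannot be told apart.

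**Figure D1:**
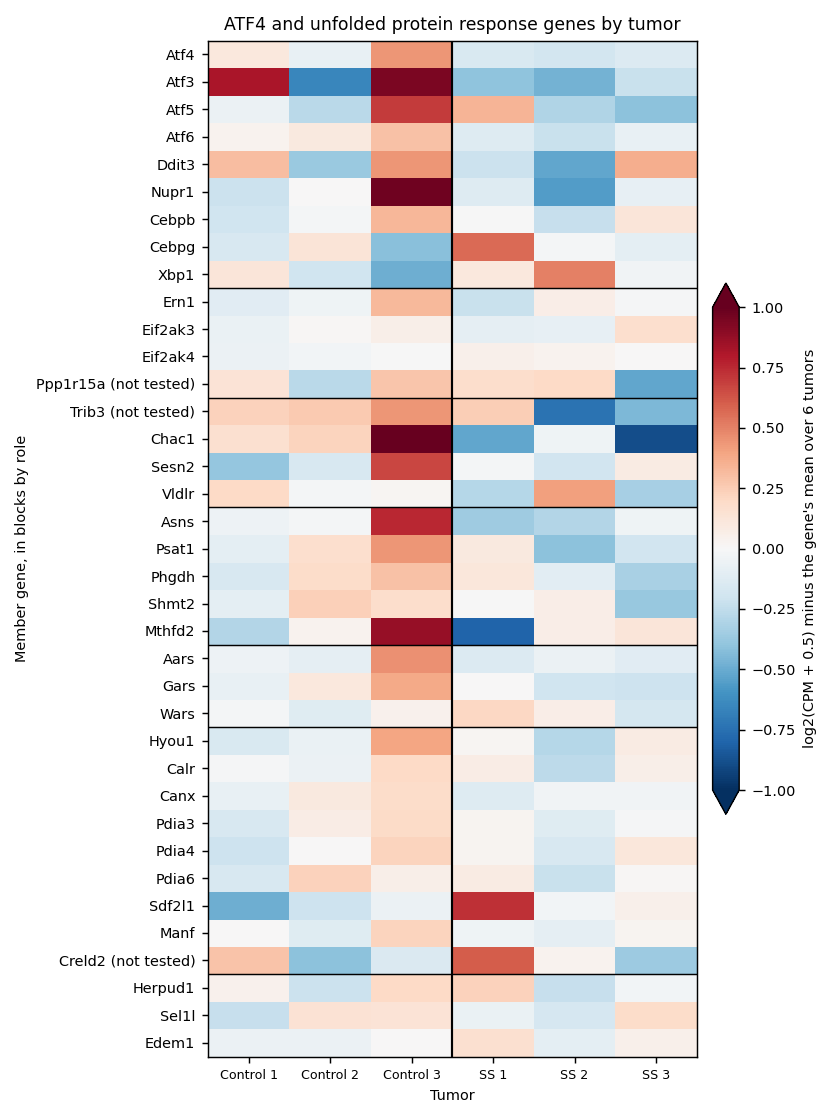
Level of the 37 members in each tumor, as log2(CPM + 0.5) minus the mean of the gene over the 6 tumors, with members in rows in blocks by role and tumors in columns; red is above and blue below the mean, and the scale ends at 1 in each direction. Control 3 is red in most rows, being the highest tumor for 22 of the 34 members tested.

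Much of this rested on control 3. That tumor was the highest of the 6 tumors for 22 of the 34 members tested (64.7%), whereas it was the highest for 18.8% of all genes. Its level divided by the mean of control 1 and control 2 had a median of 1.22 over the members and of 0.992 over all genes. The mean of the SS tumors divided by that of control 1 and 2 had a median of 1.00 over the members. Without control 3, the median log2 fold change of the members was 0.0044, with 16 of 35 below 0, and *Sdf2l1* was the one member at an unadjusted p under 0.05, beside 516 of 11295 genes. Without control 1 the median was -0.20. Control 3 was also the deepest library. With all libraries thinned to the smallest, the median of the members was -0.14 and 5 members were at an unadjusted p under 0.05, beside 671 of 10259 genes.

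Of the 9 transcription factors, 7 had a log2 fold change below 0, with a median of -0.28. Without control 3, 5 of the 9 were below 0, with a median of -0.080, and 0 were at an unadjusted p under 0.05. The median was -0.44 without control 2 and -0.18 without SS 2. *Atf4*, the hub of the amino acid and stress arm, was at 238, 210 and 301 CPM in control 1, 2 and 3 and at 200, 195 and 202 CPM in SS 1, 2 and 3. Every SS tumor was lower than every control tumor, and the SS tumors lay close together. Its log2 fold change was -0.33 (SE 0.137, unadjusted p = 0.0445, adjusted p = 0.771 by edgeR), a mean of 250 ± 46.4 CPM against 199 ± 3.49 CPM (SD, n = 3 each). Without control 3 it was -0.17 (unadjusted p = 0.136), and the groups still did not overlap, as for 10.3% of all genes in this direction without that tumor.

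*Atf3* encodes a stress-induced factor that ATF4 activates. It stood at 93.7, 33.5 and 102 CPM in controls and 40.0, 38.2 and 45.5 CPM in SS tumors. The groups overlapped, since control 2 was the lowest tumor of all and the other two controls stood far above every SS tumor. The log2 fold change of *Atf3* was -0.89 (SE 0.368, unadjusted p = 0.0431, adjusted p = 0.771). Without control 3 it was -0.62 (unadjusted p = 0.154), and without control 2 it was -1.25 (unadjusted p = 5.56e-05, adjusted p = 0.624).

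*Nupr1*, a small stress-induced nuclear protein, had 17.6, 20.6 and 40.9 CPM in controls and 18.8, 13.8 and 19.4 CPM in SS tumors. Control 3 alone stood apart, and the other 5 tumors overlapped. Its log2 fold change was -0.60 (SE 0.328, unadjusted p = 0.104) and -0.14 without control 3. *Atf6*, the ER-anchored sensor that becomes a transcription factor when cut, was at 17.9, 18.8 and 21.5 CPM in controls and 16.0, 14.9 and 16.6 CPM in SS tumors. The groups did not overlap, and the log2 fold change of -0.30 (SE 0.156, unadjusted p = 0.0970) did not pass the unadjusted threshold.

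*Ddit3*, which encodes CHOP, the factor that links long ER stress to cell death, was low and overlapped. It was at 8.85, 5.36 and 9.77 CPM in controls and 6.02, 4.77 and 9.21 CPM in SS tumors, with a log2 fold change of -0.26 (SE 0.341, unadjusted p = 0.475), which was -0.08 without control 3, -0.07 without SS 2, -0.48 without control 2 and -0.56 without SS 3. *Atf5*, *Cebpb* and *Cebpg* overlapped too, with log2 fold changes of -0.28, -0.09 and 0.45. *Cebpg* rested on 10 to 28 counts per tumor. The 3 RefSeq transcripts of *Cebpb* held the same estimate in each tumor, so its forms could not be told apart.

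**Figure D2:**
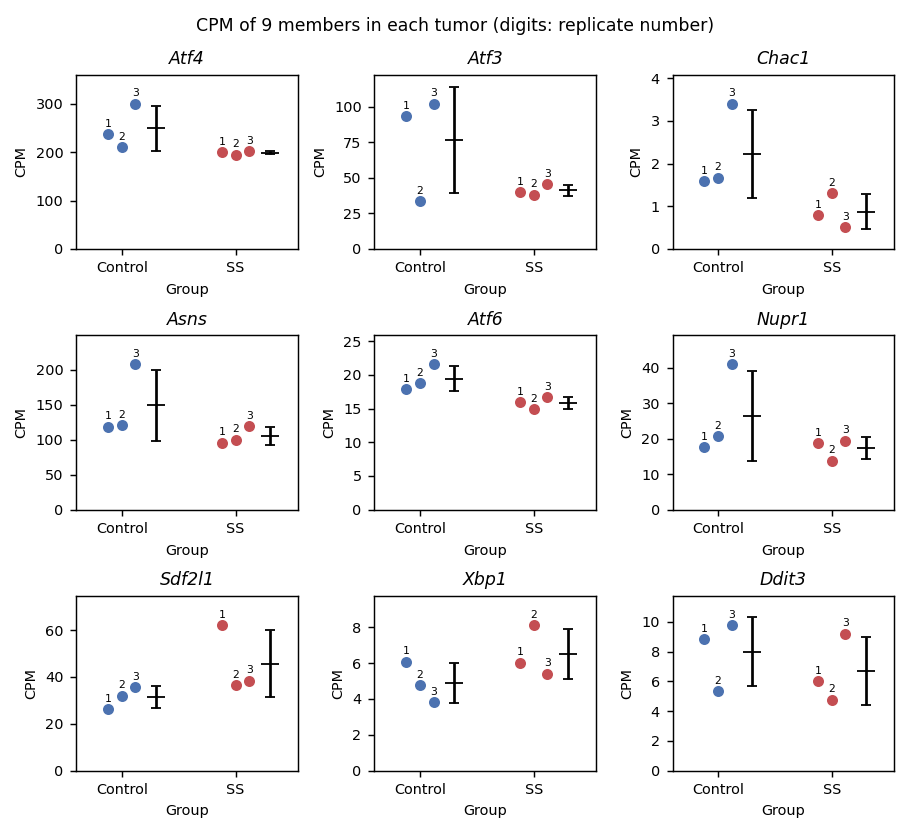
CPM (linear axis from 0) of 9 members in each tumor, with blue points for control and red for SS tumors, the replicate number above each point, and black bars for mean ± SD (n = 3). The SS tumors lie below all controls for *Atf4*, *Atf6* and *Chac1* and above them for *Sdf2l1*, and control 3 stands above the other tumors for *Nupr1*, *Asns* and *Chac1*.

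The stress sensors were near level between the groups, and none of the 3 tested was at an unadjusted p under 0.05. *Ern1* encodes IRE1, the kinase and RNase that cuts *Xbp1* mRNA. It was at 42.5, 44.7 and 57.9 CPM in controls and 39.6, 48.4 and 45.8 CPM in SS tumors, with a log2 fold change of -0.12 (SE 0.156, unadjusted p = 0.465) that was 0.032 without control 3. *Eif2ak3*, encoding PERK, was at 2.29, 2.46 and 2.54 CPM in controls and 2.25, 2.27 and 2.79 CPM in SS tumors, on 19 to 62 counts per tumor. Its log2 fold change was 0.0015 (SE 0.358), and its sign turned with the scaling. *Eif2ak4*, encoding GCN2, which senses uncharged tRNA, was at 42.4, 43.1 and 44.0 CPM against 45.5, 45.1 and 44.2 CPM. These groups did not overlap, but the difference was a log2 fold change of 0.06 (SE 0.104, unadjusted p = 0.595). *Ppp1r15a*, the GADD34 subunit that lets eIF2 be dephosphorylated, had 2 to 16 counts per tumor and was not tested.

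*Xbp1* was the member for which the table separates the product of a sensor from its substrate. When IRE1 is active it removes 26 bases from the *Xbp1* mRNA, which shifts the reading frame and yields the active factor. The stretch lies in exon 4 of 5, in the coding sequence, at chr11:5524282-5524307 on the plus strand of GRCm38, and stands in capitals within the window chr11:5524262-5524327.
Xbp1: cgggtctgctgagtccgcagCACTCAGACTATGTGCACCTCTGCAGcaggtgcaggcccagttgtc
With the 26 bases the reading frame has 267 codons, and without them it has 371. In total *Xbp1* was at 6.09, 4.77 and 3.82 CPM in controls and 6.02, 8.11 and 5.41 CPM in SS tumors, with a log2 fold change of 0.41 (SE 0.299, unadjusted p = 0.205), or 0.23 without SS 2, with overlap between the groups.

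The share of *Xbp1* counts assigned to the RefSeq transcript of the spliced form was 2.81%, 25.4% and 24.4% in control 1, 2 and 3 and 21.6%, 16.8% and 63.9% in SS 1, 2 and 3. Control 1 was low and SS 3 high, and the other 4 tumors lay together. The Wilson 95% interval was 0.715% to 8.98% in control 1 and 51.8% to 74.7% in SS 3. It took each of the 77 and 64 counts as telling the forms apart. Fewer reads do so, and these intervals are therefore too narrow even for counting error. The mean share was 17.5% ± 12.8 in control and 34.1% ± 25.9 in SS tumors (SD, n = 3 each), and an exact two-sided permutation test gave p = 0.6. The difference between the means, 16.5 percentage points, was 1.63 points without SS 3, 9.17 without control 1 and 25.2 without SS 2. These shares are estimates by the authors' counting of transcripts that differ by 26 bases, so only reads over that junction separate them.

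The stress outputs of ATF4 were lower in mean for all 3 members tested, with a median log2 fold change of -0.18. Without control 3 the median was -0.12, with 2 of 3 below 0. It was -0.74 without control 1, -0.52 without SS 2 and -0.53 without SS 3, where *Trib3* was tested too, and -0.31 without control 2. *Chac1*, which degrades glutathione and is induced by ATF4, was at 1.58, 1.67 and 3.41 CPM in controls and 0.80, 1.31 and 0.51 CPM in SS tumors. Every SS tumor was below every control tumor, on 6 to 83 counts per tumor. *Chac1* had the lowest log2 fold change of the members tested, -1.37 (SE 0.572, unadjusted p = 0.0448, adjusted p = 0.771), and without control 3 it was -0.91 (unadjusted p = 0.219). *Trib3*, a pseudokinase that restrains ATF4, was below the filter, at 9, 15 and 22 counts in the control tumors and 10, 1 and 3 counts in the SS tumors. *Sesn2*, an inhibitor of mTORC1 under stress, and *Vldlr*, a lipoprotein receptor, overlapped, with log2 fold changes of -0.18 (SE 0.377) and -0.10 (SE 0.215).

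*Vldlr* was at 40.7, 35.0 and 36.0 CPM in controls and 29.0, 47.3 and 28.1 CPM in SS tumors. SS 2 was above and the other SS tumors below all controls, and without SS 2 *Vldlr* was at an unadjusted p under 0.05. The skeletal muscle markers were also highest in SS 2 for all 8 genes of their list, which summed to between 1427 and 12208 CPM in control and between 421 and 26083 CPM in SS tumors. Of 5 endothelial markers tested, 4 were highest in SS 2, with a sum over 6 genes of 59.3 to 96.7 CPM in control and 77.7 to 146 CPM in SS tumors. The part of these cell types in the level of *Vldlr* was not tested.

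The enzymes of serine, one-carbon and asparagine synthesis were lower in mean for 5 of 5 members, with a median log2 fold change of -0.34, and none was at an unadjusted p under 0.05. *Asns*, asparagine synthetase, was at 119, 121 and 208 CPM in control 1, 2 and 3 and at 95.9, 100 and 119 CPM in SS 1, 2 and 3. SS 3 lay just within the range of the control tumors and control 3 far above the rest. Its log2 fold change was -0.51 (SE 0.225, unadjusted p = 0.0557, adjusted p = 0.774), and -0.19 without control 3 (unadjusted p = 0.189). *Phgdh* and *Psat1*, which open the serine pathway, had log2 fold changes of -0.21 (SE 0.161) and -0.34 (SE 0.185). *Shmt2* and *Mthfd2*, which pass serine carbon to folate in mitochondria, had log2 fold changes of -0.21 (SE 0.152) and -0.48 (SE 0.409). Without control 3, all 5 were still below 0, with a median of -0.17.

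Of the 3 tRNA synthetases, *Gars* for glycine and *Aars* for alanine had log2 fold changes of -0.28 (SE 0.135, unadjusted p = 0.0732) and -0.23 (SE 0.156, unadjusted p = 0.177), and *Wars* for tryptophan had 0.07 (SE 0.147). Their median was -0.23 and was -0.031 without control 3. *Aars* was at 142, 138 and 202 CPM in controls and 134, 141 and 136 CPM in SS tumors, so that control 3 was the one tumor that stood apart.

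The ER chaperones and folding enzymes were nearer to level, with a median log2 fold change of -0.08. Of the 8 tested, 7 were below 0, but the 7 lay between -0.14 (*Canx*) and -0.02 (*Pdia4*). *Pdia3*, a disulfide isomerase for glycoproteins and the member with the highest level per kb, had means of 1277 ± 156 CPM in control and 1210 ± 65.3 CPM in SS tumors (SD, n = 3 each). The calcium-binding chaperone *Calr* had a log2 fold change of -0.08 (SE 0.125), and *Hyou1*, a large chaperone of the HSP70 family, had -0.13 (SE 0.171). Without control 3 the median of this group was 0.027, with 2 of 9 below 0, without SS 2 it was -0.0067, with 5 of 9 below 0, and without control 1 it was -0.14.

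*Sdf2l1* went the other way. It encodes a partner of the BiP chaperone and is induced by ER stress. It was at 26.4, 32.0 and 35.7 CPM in controls and 62.1, 36.4 and 38.5 CPM in SS tumors. SS 1 was high, while SS 2 exceeded the highest control tumor by little. The log2 fold change was 0.54 (SE 0.229, unadjusted p = 0.0475, adjusted p = 0.771) and 0.25 without SS 1 (unadjusted p = 0.194). The 3 members of ER-associated degradation, in which *Herpud1* and *Sel1l* belong to the export complex and *Edem1* marks glycoproteins for removal, had log2 fold changes of -0.01, -0.04 and 0.08, and none was at an unadjusted p under 0.05.

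**Figure D3:**
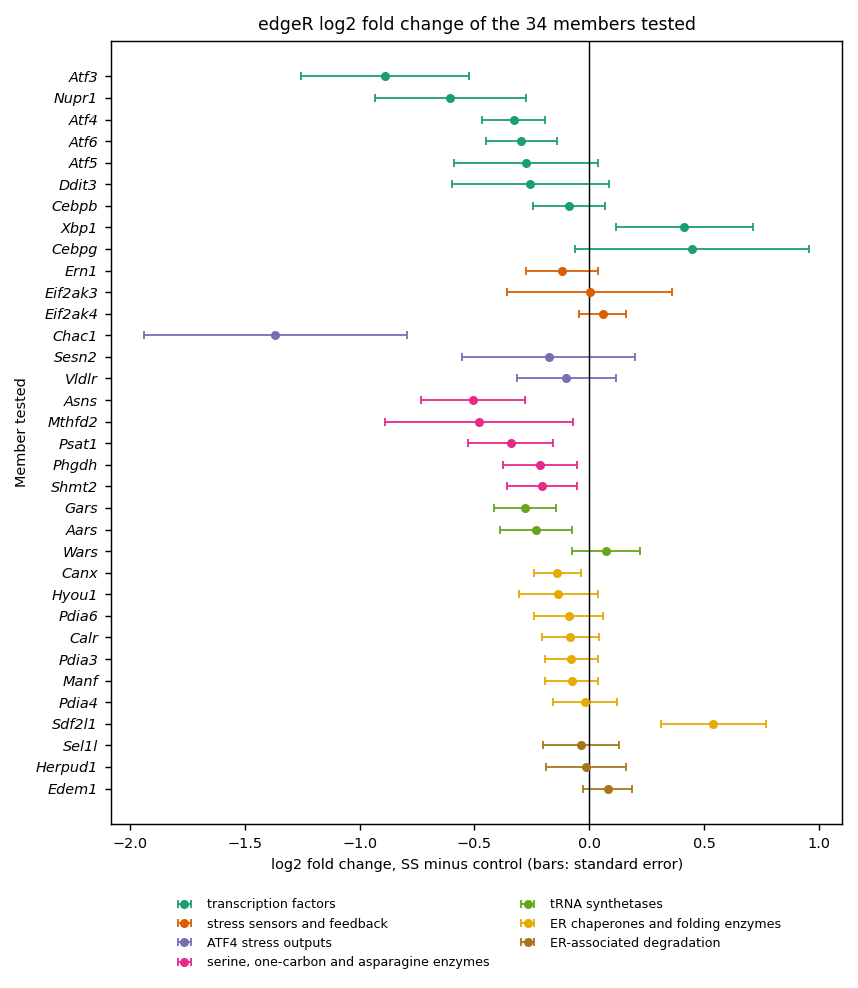
Log2 fold change of SS over control (horizontal axis) with its standard error (bars) for the 34 members tested, in rows coloured by role. The points run from -1.37 for *Chac1* to 0.54 for *Sdf2l1*, and 27 of the 34 lie left of 0.

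Of 74 further genes of these pathways, 69 were in the table and 66 were tested. Their median log2 fold change was -0.12, with 48 of 66 below 0 (50.2% of all genes), and 5 were at an unadjusted p under 0.05 (6.36% of all genes), all lower in SS tumors (3.16% of all genes). The 5 genes were among the 26 other targets of ATF4 tested, whose median was -0.20. Without control 3, the median was -0.023 over the further genes and -0.050 over the other targets of ATF4, with 17 of 27 of these below 0. In that setting 2 of 68 further genes were at an unadjusted p under 0.05, beside 516 of 11295 genes, and none of the 5 was among them. The 2 genes, *Slc7a11* and *Slc6a9*, carriers of cystine and glycine, were higher in SS tumors. *Hspa5*, which encodes BiP, the chaperone that holds the sensors inactive, was at 1138, 1120 and 1713 CPM in controls and 1188, 1049 and 1408 CPM in SS tumors, with a log2 fold change of -0.12 (SE 0.190). *Hsp90b1*, the ER form of HSP90, had 1107, 1160 and 1423 CPM in controls against 1215, 1045 and 1175 CPM under SS, for a log2 fold change of -0.10 (SE 0.124). Both genes overlapped between the groups and were highest in control 3.

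*Slc7a1*, the carrier of arginine and lysine, was at 14.9, 10.8 and 20.1 CPM in controls and 7.62, 8.58 and 9.97 CPM in SS tumors. The groups did not overlap, and its log2 fold change was -0.81 (SE 0.262, unadjusted p = 0.0155, adjusted p = 0.771). *Xpot*, which exports tRNA from the nucleus, was at 46.3, 43.2 and 46.7 CPM against 38.1, 34.3 and 33.8 CPM, also without overlap, a log2 fold change of -0.36 (SE 0.117, unadjusted p = 0.0159). The controls lay close together for *Xpot*, which was at an unadjusted p under 0.05 with any tumor other than control 3 left out. *Slc7a1* lost this call without control 3 or SS 1.

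*Eif4ebp1*, a repressor of cap-dependent translation, had 118, 124 and 167 CPM in controls against 97.2, 84.5 and 118 CPM under SS, for a log2 fold change of -0.45 (SE 0.176, unadjusted p = 0.0349). *Pck2*, the mitochondrial PEP carboxykinase, had 39.6, 42.9 and 52.2 CPM against 35.7, 34.1 and 37.6 CPM, for a log2 fold change of -0.33 (SE 0.141, unadjusted p = 0.0492). *Eprs*, the synthetase for glutamate and proline, had 124, 141 and 150 CPM against 101, 104 and 128 CPM, for a log2 fold change of -0.32 (SE 0.129, unadjusted p = 0.0409). The groups did not overlap for *Pck2*, whereas SS 3 reached into the range of the controls for *Eif4ebp1* and *Eprs*. *Eif4ebp1* was no longer at an unadjusted p under 0.05 without control 3, SS 1 or SS 2, and *Eprs* without any of these or control 2. *Pck2* was at that threshold only without control 1 when a tumor was left out. It was not with DESeq2 (unadjusted p = 0.0597), limma-voom, the replicate block, thinning or no filter on low counts. With a tumor left out a group is smaller, so a lost call alone does not show a smaller difference. The adjusted p was 0.771 for each of these genes and for *Xpot*.

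**Figure D4:**
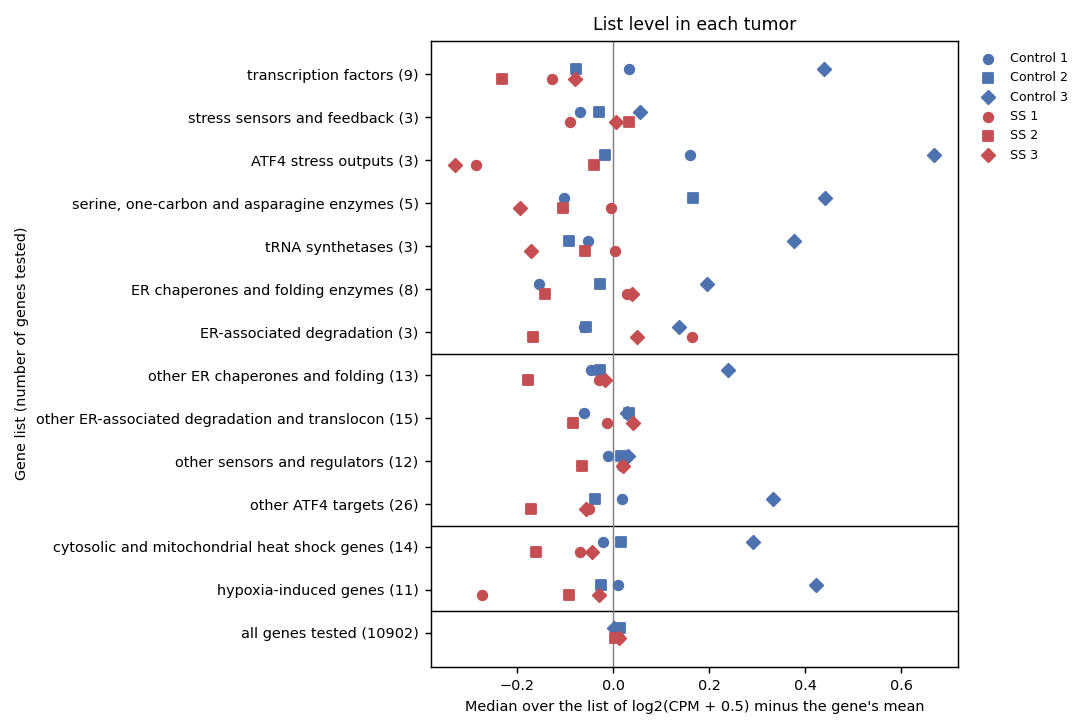
Level of each gene list in each tumor, as the median over its tested genes of log2(CPM + 0.5) minus the mean of the gene over 6 tumors (horizontal axis), with blue symbols for control and red for SS tumors. Control 3 (blue diamond) stands at 0.44 for the transcription factors, 0.33 for other ATF4 targets and 0.42 for hypoxia-induced genes, and all tumors are near 0 over all genes.

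The high level of control 3 was also present outside these pathways. Of 14 genes of the cytosolic and mitochondrial heat shock response, 10 were highest in control 3. Their median log2 fold change was -0.20, or -0.11 without control 3. At an unadjusted p under 0.05 there were 3 of them (6.36% of all genes). Without control 3 there were 0, beside 516 of 11295 genes. For the hypoxia-induced genes, 9 of 11 tested were highest in control 3, 11 of 11 had a log2 fold change below 0, and the median was -0.25, or -0.076 without control 3. Control 3 also had the lowest sum of adipocyte markers, where the controls ranged from 13.7 to 205 CPM over 8 genes and the SS tumors from 56.0 to 114 CPM. The macrophage markers were above 0 in log2 fold change for 8 of 8 genes, with 0 at an unadjusted p under 0.05, and summed to between 724 and 860 CPM in control and between 766 and 954 CPM in SS tumors; without control 1, 4 of the 8 were below 0. The erythroid list summed to between 1892 and 3927 CPM in control and between 853 and 1934 CPM in SS tumors. Of 5 erythroid markers tested, 4 were lower in SS tumors at an unadjusted p under 0.05 (3.16% of all genes). This count was 1 without control 1 or without SS 1, and 2 without SS 3. Of 8 dendritic cell markers, 6 were in the table and 4 were tested. They summed to between 52.5 and 83.7 CPM in control and between 95.5 and 184 CPM in SS tumors, without overlap. Their list level, the median of log2(CPM + 0.5) minus the mean of the gene, did overlap. It was 0.58 in control 1 against 0.35 in SS 2 and -0.0061 in SS 3. Only 1 marker, *Itgax*, was higher at an unadjusted p under 0.05 (3.19% of all genes), and 2 of the 4 were below 0 in log2 fold change. The part of these cell types and of hypoxia in the levels of the members was not tested.

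**Figure D5:**
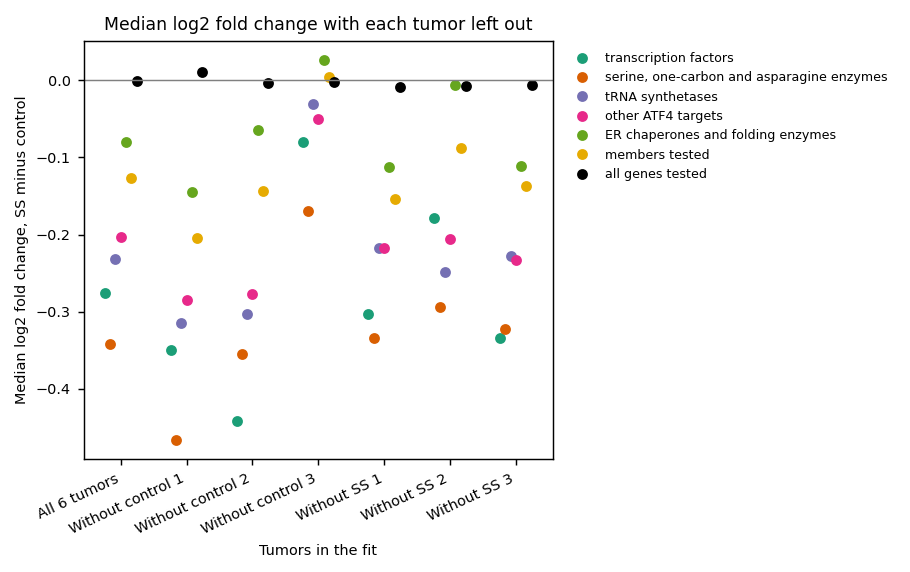
Median log2 fold change of SS over control (vertical axis) for groups of members, other ATF4 targets, the members tested and all genes, with all 6 tumors and with each tumor left out (horizontal axis). Without control 3 the members tested are at 0.0044 and the serine, one-carbon and asparagine enzymes at -0.17; all genes stay near 0 throughout.

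Set beside the promoter elements, the 8 tested members with a C/EBP-ATF element all had a log2 fold change below 0, from -1.37 (*Chac1*) to -0.01 (*Herpud1*), with a median of -0.39. Without control 3, 7 of the 8 were below 0, with a median of -0.14. The 4 tested members with either form of the ER stress element (*Calr*, *Canx*, *Pdia6* and *Herpud1*) were all below 0 too, with a median of -0.09, and without control 3, when *Creld2* was also tested, 2 of 5 were below 0, with a median of 3.7e-05. *Herpud1*, which holds both kinds, was at 35.6, 29.8 and 39.8 CPM in controls and 40.8, 29.5 and 33.9 CPM in SS tumors, with full overlap. The 2 sets share *Herpud1* and were not compared by a test.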

How the data were processed

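Stranded libraries of polyadenylated tumor RNA were read from both ends. The values deposited by the authors are estimated counts of each RefSeq transcript, not normalized, after removal of entries with very low values. The submitters' processing notes name CASAVA 1.8.1, Bowtie2 2.2.5 and STAR 2.5.3a, and the counting tool is not given in the sources used here. Here 20648 transcripts were summed by gene symbol, with 21 symbols restored from calendar dates, and the expected counts were rounded. Coordinates are on GRCm38. The accessions of 52 of 52 member transcripts were found among the RefSeq genes of that build. Of these, 51 lay within the gene's coordinates there, to within 10 bases. Totals of 8468914 to 24441522 counts limit the precision of members with few counts.

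Groups were compared with edgeR 4.0.16 in R 4.3.3 (TMM scaling, filter by expression, quasi-likelihood test, two-sided, Benjamini-Hochberg adjustment over 10902 genes), with 3 control and 3 SS tumors. Each SE was obtained from the fold change and its F statistic. Replicates are separate samples, and the labels do not say more, so p-values measure only the spread between these tumors. List levels use log2(CPM + 0.5). Lengths were those of GENCODE transcripts matched by accession. The test was checked on simulated counts. Alternatives were RLE and upper-quartile scaling, other filters, DESeq2 1.42.0, limma 3.58.1 (voom, or after quantile normalization as in the study), thinning, the replicate number as a block, and each tumor left out.

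The members and lists were chosen with earlier results of these data known. Values in every tumor are given for members at an unadjusted p under 0.05, members without overlap, the 5 with the largest change, and *Atf4*, *Ddit3*, *Xbp1*, *Ern1*, *Eif2ak3* and *Asns*; for other pathway genes, those at an unadjusted p under 0.05, with *Hspa5* and *Hsp90b1*. *Aars*, *Trib3*, *Herpud1*, *Vldlr*, *Slc7a11*, *Slc6a9* and *Itgax* were added after their values were seen.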

Additional observations from a re-analysis of the deposited data

How the results depend on the processing

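The number of genes past adjustment was 35 with DESeq2 and 0 in every other setting. The members at an unadjusted p under 0.05, 4 by edgeR, numbered 2 with the replicate block (*Atf4* and *Asns*), 0 with limma-voom and 1 after quantile normalization (*Atf4*), and 1 to 5 with a tumor left out. Over all genes, 762 were at that threshold with limma-voom, 705 after quantile normalization and 516 to 877 with a tumor left out. With control 3, SS 1 or SS 3 left out, 1 member was found (*Sdf2l1*, *Psat1* and *Sdf2l1*). Over the 9 alternatives that kept every tumor, log2 fold changes moved less than the calls. They lay between -0.35 and -0.29 for *Atf4*, -0.94 and -0.71 for *Atf3*, -1.57 and -1.19 for *Chac1*, and 0.50 and 0.60 for *Sdf2l1*. The replicate numbers only name the tumors, since deviations of same-numbered tumors correlated at 0.116, 0.0205 and 0.0767; under the block 643 genes were at an unadjusted p under 0.05, against 693. Members without overlap, 5 in the report, numbered 3 with no filter on low counts and 5 to 15 with a tumor left out, against 21.0% to 25.4% of all genes. With no filter, the median log2 fold change was -0.067 for the stress sensors, to which *Ppp1r15a* was added. It was -0.62 for the ATF4 stress outputs, to which *Trib3* was added. These 2 medians thus cover other genes than in the main fit. With a tumor left out, the stress sensors ranged from -0.11 to 0.047 and the ATF4 stress outputs from -0.74 to -0.12. The tRNA synthetases ranged from -0.31 to -0.031. *Ern1* ranged from -0.20 to 0.032, the latter without control 3. *Eif2ak3*, at 0.0015, turned to -0.00057 with RLE, -0.0019 with upper-quartile scaling, -0.0056 with no filter, -0.0022 with the block, -0.0010 with DESeq2, -0.0043 with limma-voom, -0.021 after quantile normalization and -0.062 after thinning, and ranged from -0.11 to 0.055 with a tumor left out. The cause of these shifts was not tested. A minimum of 10 counts per *Xbp1* transcript could not be applied, since control 1 had 2 counts of the spliced form. The order of the members without control 3 was added after the data were seen, because that tumor was high. The fold changes set beside the promoter elements were not among the planned results. Depth limits the members with few counts, such as *Chac1*, at 6 to 83 counts per tumor, and *Cebpg*, at 10 to 28.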
